A study of Mus musculus with 27 samples.

Results

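The contractile actin program of myofibroblasts was followed in bulk RNA-seq of mouse embryonic fibroblasts (MEFs) that were being reprogrammed to induced neurons (iNs). The program was represented by 10 of the 54532 genes of the deposited table, chosen by name: the actins Acta2, Actg2, and Actb, the actin-binding proteins Tagln, Cnn1, Tpm1, Tpm2, and Cald1, the myosin light chain Myl9, and the transcription factor Srf. All 10 were found once in the table and passed the filter of a mean of at least 0.5 FPKM (fragments relative to transcript length and to library size) that left 14932 genes for testing. The 27 libraries came from WT, Per1-/-, and Per2-/- cells (mouse lines B6.129-Per1tm1Drw/J and B6.129-Per2tm1Drw/J, with WT obtained by breeding) on days 0, 2, and 4, with 3 replicates in each of the 9 groups. The MEFs of all groups were made from embryos without head and heart, with several embryos pooled per dish, and all received lentiviruses for doxycycline-induced neuronal reprogramming factors together with the transactivator M2rtTA. Day 0 cells had grown in DMEM with serum and had not yet been given doxycycline, whereas the day 2 and day 4 cells were in serum-free N3 medium with doxycycline. The N3 medium also brought insulin, transferrin, selenium, progesterone, putrescine, and basic FGF. The loss of serum, these additions, the induction of the reprogramming factors, and time therefore coincided between day 0 and day 2. They cannot be told apart. The sample labels and the study call the replicates biological. No source used here says that replicates came from separate embryos, so the p-values measure the spread between these libraries only.

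Myofibroblasts are fibroblasts that have taken on part of the contractile machinery of smooth muscle, and cultured fibroblasts on stiff plastic readily acquire this state. Smooth muscle actins assemble into stress fibers, non-muscle and smooth muscle myosins pull on them, and tropomyosin, calponin, and caldesmon lie along the filaments and tune the contact with myosin. Many of these genes share a control element, the CArG box, which is bound by serum response factor (SRF), the product of Srf. SRF acts with the cofactors MRTF-A and MRTF-B, which are held in the cytoplasm by unpolymerized actin.

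The CArG box is a pair of C, a run of A or T, and a pair of G, and its reverse complement has the same form, so a match counts for both strands. RefSeq promoters (GRCm38.p6, 250 bases before and 50 bases after the start) were given for 7 of the 10 genes, and none was given for Actg2, Tagln, or Actb. The Srf and Myl9 promoters are shown because they were the members with a match, and the boxes are in capitals. The Srf sequence is chr17:46556176-46556412 on the minus strand and the Myl9 sequence is chr2:156775214-156775419 on the plus strand, each ending before the annotated gene.
Srf: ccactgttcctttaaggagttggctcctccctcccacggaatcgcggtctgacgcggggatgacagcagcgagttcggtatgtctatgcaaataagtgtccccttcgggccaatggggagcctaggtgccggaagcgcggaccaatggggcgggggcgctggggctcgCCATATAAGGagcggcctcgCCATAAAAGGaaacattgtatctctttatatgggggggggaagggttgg
Myl9: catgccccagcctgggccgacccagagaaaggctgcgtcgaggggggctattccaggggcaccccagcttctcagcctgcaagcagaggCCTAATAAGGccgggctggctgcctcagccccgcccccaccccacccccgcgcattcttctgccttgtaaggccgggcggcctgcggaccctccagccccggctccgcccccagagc
Srf held 2 boxes, which began 82 and 62 bases before the RefSeq start, and Myl9 held 1, which began 161 bases before it. A box was found in 535 of 32851 promoters (1.63%) and 2 or more boxes in 6 (0.0183%). No match was found in the windows of Acta2, Cnn1, Tpm1, Tpm2, or Cald1, which says only that these letters are not in these windows. Among the related genes described further on, a box was found in 3 of 3 promoters of other actins (Actg1, Acta1, and Actc1). It was found in 2 of 18 promoters of other contractile genes and 3 of 9 of other SRF targets. The joint list of SRF cofactors and regulators of actin assembly had 0 of 11. A match is a description of the sequence and not evidence of binding.

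Acta2, Actg2, and Cnn1 are members typical of smooth muscle, as is Tagln, which is described further on. Acta2 (ENSMUSG00000035783, chr19:34241090-34255336, GRCm38), which encodes smooth muscle alpha-actin and is the usual marker of myofibroblasts, had day 0 levels of 3463, 2539, and 2887 FPKM in the WT replicates, 2338, 2545, and 3535 in Per1-/-, and 2804, 2354, and 2210 in those labelled Per2-/-. The day 2 levels were 508, 480, and 429 FPKM in WT, 190, 595, and 610 in Per1-/-, and 454, 201, and 314 in Per2-/- replicates. By day 4 they were 240, 287, and 276 FPKM in WT, 135, 331, and 304 in Per1-/-, and 277, 238, and 257 in Per2-/- replicates. The day 0 values did not overlap with those of the later days, while days 2 and 4 overlapped, and the first Per1-/- replicate was lowest on both later days. Averaged over the genotypes, the log2 fold change of Acta2 from day 0 to day 2 was -2.80 ± 0.209 (SE), or 6.94-fold lower, with an adjusted p of 1.06e-10 (limma, Benjamini-Hochberg over all tested genes).

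Actg2 (ENSMUSG00000059430, chr6:83512905-83536265), which encodes the gamma-actin of enteric smooth muscle, had lower levels throughout. Its FPKM was 204, 108, and 161 in WT, 161, 117, and 198 in Per1-/-, and 121, 123, and 105 in Per2-/- libraries on day 0. On day 2 it was 19.5, 12.0, and 10.9 in WT, 6.94, 17.5, and 20.9 in Per1-/-, and 13.1, 4.61, and 9.15 in Per2-/- libraries. On day 4 it was between 4.01 and 9.76 FPKM in all 9 libraries. Actg2 was 12.0-fold lower on day 2 than on day 0 (log2 fold change -3.59 ± 0.236, adjusted p = 1.29e-11, limma).

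Cnn1 (ENSMUSG00000001349, chr9:22099216-22109630), which encodes calponin 1, a filament-bound protein of differentiated smooth muscle, had the largest fall of the 10 genes. It was at 191, 166, and 105 FPKM in WT, 98.5, 86.6, and 143 in Per1-/-, and 180, 89.0, and 88.5 in Per2-/- libraries on day 0. On day 2 the same order gave 8.10, 8.46, and 5.96, then 2.49, 7.55, and 7.50, then 7.11, 2.46, and 4.03 FPKM. On day 4 the levels were 2.06 to 8.69 FPKM. The fall from day 0 to day 2 was 21.9-fold (log2 fold change -4.45 ± 0.267, adjusted p = 2.97e-12, limma), and only 15 of the 14932 tested genes had a more negative change. Cnn1 also varied most between replicates, with a spread of 0.605 on the log2 scale within groups, against 0.101 for Cald1.

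**Figure D1:**
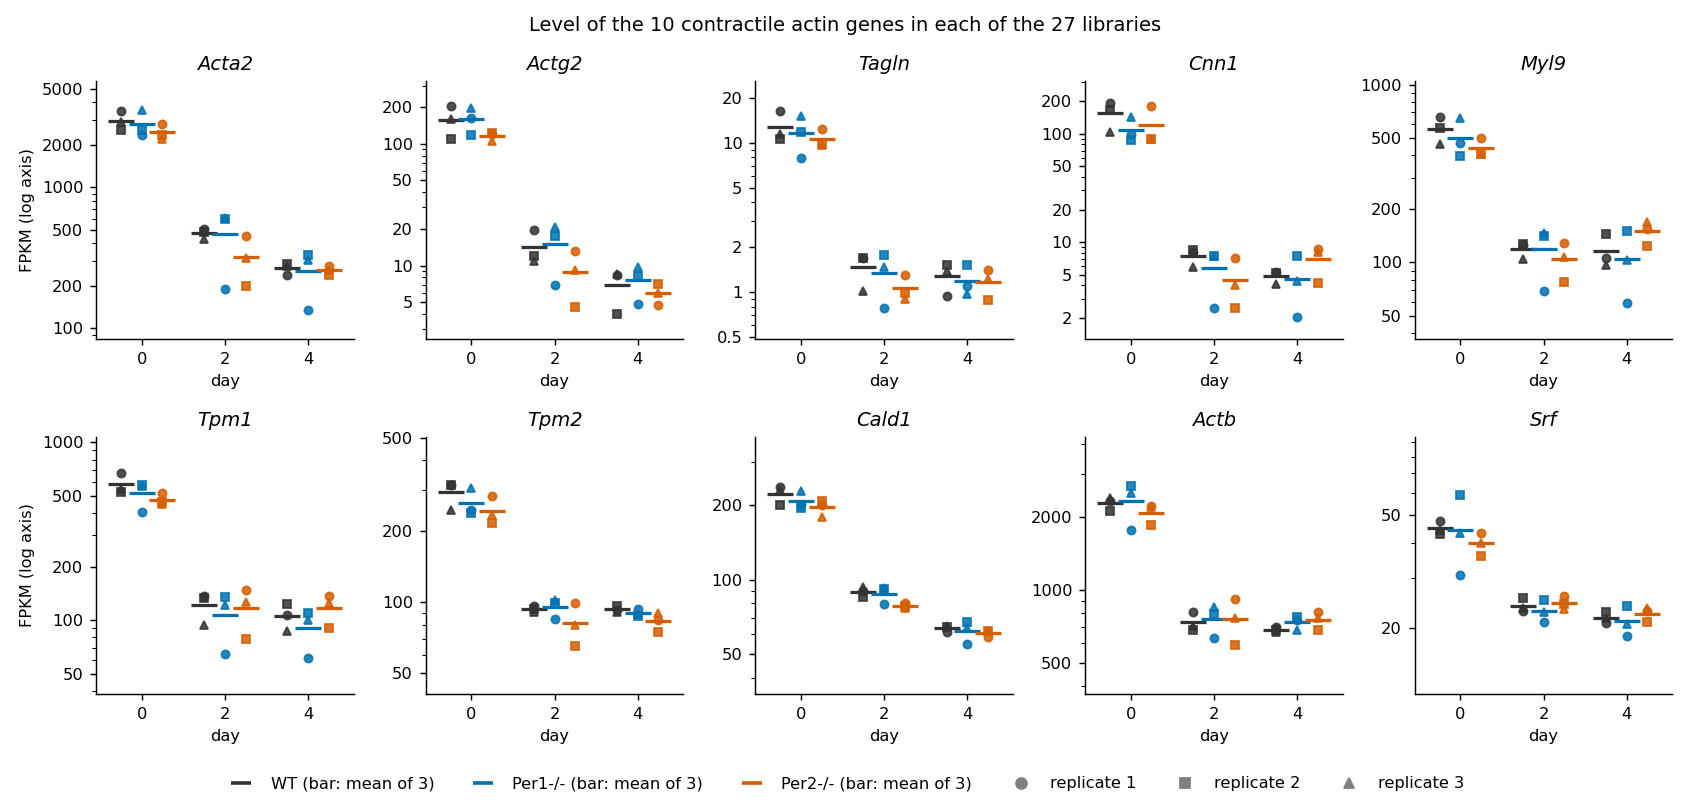
FPKM (log axis, a separate range for each gene) of the 10 genes by day in each of the 27 libraries; colors mark the genotype, symbols the replicate number, and bars the mean of 3 libraries. For each gene, the 9 libraries of day 0 lie above the 9 of day 2 and the 9 of day 4, as for Cnn1, which was at 86.6 FPKM or more on day 0 and at 8.69 FPKM or less afterwards.

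All 10 genes fell from day 0 to day 2 in the mean of the genotypes, where 19.9% of all tested genes fell and 22.2% rose. Genes were called where the adjusted p did not exceed 0.05 and the fold change reached 0.58 on the log2 scale in either direction. The median log2 fold change of the 10 genes was -2.18, against -0.01 over all tested genes. On the scale of the file, 2967 genes fell and 3308 rose. When each library was rescaled to the same FPKM sum, which put the median of all genes at 0.36, 1361 fell and 5610 rose, and 9 members were called (not Srf).
All 10 genes also fell within each genotype on its own, in WT cells (19.7% of tested genes fell), in Per1-/- cells (18.8%), and in cells labelled Per2-/- (16.8%). From day 0 to day 4 the count was again 10 in the mean of the genotypes (21.2% of tested genes fell and 24.4% rose), in WT (20.9%), in Per1-/- (20.4%), and in Per2-/- (18.8%). For each of the 10 genes, the lowest of the 9 day 0 libraries was above the highest of the 9 libraries on day 2 and on day 4. In bulk RNA, fewer contractile cells and less of these RNAs per cell cannot be told apart.

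Tagln, Myl9, Tpm1, Tpm2, and Cald1 encode proteins that bind actin or myosin. Myl9 (ENSMUSG00000067818, chr2:156775420-156781658), the regulatory myosin light chain whose phosphorylation switches on contraction, ranged from 394 to 654 FPKM in the day 0 libraries and from 69.3 to 146 in those of day 2. It was 4.43-fold lower on day 2 (log2 fold change -2.15 ± 0.172, adjusted p = 3.08e-10, limma), and its day 4 libraries were at 59.5 to 170 FPKM. In the first Per1-/- replicate Myl9 had the lowest level of each later day.

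The tropomyosins, which run along the actin filament and gate the access of myosin, fell by unequal amounts. Tpm1 (ENSMUSG00000032366, chr9:67022590-67049406) had day 0 levels of 406 to 673 FPKM, day 2 levels of 64.7 to 147, and day 4 levels of 61.2 to 137. Tpm2 (ENSMUSG00000028464, chr4:43514711-43523765) had 218 to 315 FPKM, then 65.2 to 103, then 74.7 to 96.6 on the same days. The fold change from day 0 to day 2 was 4.65-fold lower for Tpm1 (log2 -2.22 ± 0.158, adjusted p = 4.77e-11) and 2.95-fold lower for Tpm2 (log2 -1.56 ± 0.0769, adjusted p = 1.52e-13, both limma). Both genes yield several isoforms, some of them non-muscle, which a value per gene does not separate.

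Cald1 (ENSMUSG00000029761, chr6:34598500-34775473), which encodes caldesmon, an actin-binding inhibitor of the myosin ATPase, was the steadiest member. Its libraries spanned 180 to 238 FPKM before induction, 76.4 to 93.0 at day 2, and 54.7 to 67.3 at day 4, with no overlap between the 3 days. It was 2.46-fold lower on day 2 than on day 0 (log2 fold change -1.30 ± 0.0491, adjusted p = 3.13e-15, limma).

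Tagln (ENSMUSG00000032085, chr9:45929619-45936058), which encodes the smooth muscle protein SM22-alpha, had day 0 levels of 7.95 to 16.2 FPKM, day 2 levels of 0.777 to 1.78, and day 4 levels of 0.888 to 1.51, the lowest of the 10 genes on each day. These values are uncertain. In the GENCODE annotation of the same build, 1349 of its 1988 exon bases (67.9%) also belong to exons on the opposite strand, 1241 of them to Gm48529 and 108 to Pcsk7, and the libraries did not keep the strand. Fragments in these stretches cannot be assigned to one gene, and the counting options for them were not given in the sources used here. None of the other 9 genes shared exon bases with another gene. On the deposited values Tagln was 8.64-fold lower on day 2 (log2 fold change -3.11 ± 0.165, adjusted p = 4.64e-13, limma), from 35 to 614 fragments per library.

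Actb and Srf are not restricted to contractile cells. Actb (ENSMUSG00000029580, chr5:142903115-142906754), the cytoplasmic beta-actin found in nearly every cell type and often used as a reference gene, was at 2329, 2109, and 2392 FPKM in WT, 1761, 2681, and 2508 in Per1-/-, and 2218, 1844, and 2186 in Per2-/- libraries on day 0. The day 2 values were 807, 685, and 707, at 632, 798, and 848, and at 917, 591, and 762 FPKM in the same order, and those of day 4 were 668 to 810 FPKM. It was 2.97-fold lower on day 2 (log2 fold change -1.57 ± 0.0913, adjusted p = 1.88e-12, limma). Transcripts of other genes shared 0.644% of the 100-base windows of Actb, while 48.3% of the windows of Tagln and none of those of the other 8 genes recurred in another gene.

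Srf (ENSMUSG00000015605, chr17:46548329-46556175) was at 47.7, 43.0, and 44.1 FPKM in WT, 30.8, 59.0, and 43.4 in Per1-/-, and 43.4, 35.9, and 40.0 in Per2-/- libraries on day 0. It ranged from 21.0 to 26.0 FPKM in the day 2 libraries and from 18.7 to 24.0 in the day 4 libraries. The fall of 1.78-fold from day 0 to day 2 was the smallest of the 10 genes (log2 fold change -0.83 ± 0.0847, adjusted p = 1.40e-08, limma). On the scale of an equal FPKM sum its log2 fold change was -0.44, which is under the required size.

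Most of the fall had taken place by day 2. Only Acta2 and Actg2 fell further from day 2 to day 4 in the mean of the genotypes, that is 2 of 10 genes, where 3.43% of tested genes fell and 6.54% rose. Acta2 was 1.54-fold lower on day 4 than on day 2 (log2 fold change -0.62 ± 0.209, adjusted p = 0.0299) and Actg2 was 1.74-fold lower (-0.80 ± 0.236, adjusted p = 0.0138, both limma). The call of Acta2 was lost when any one of 6 libraries was left out (adjusted p = 0.0513 to 0.0716), and these were WT replicate 1, Per1-/- replicates 2 and 3, and Per2-/- replicate 1 of day 2 and WT replicate 1 and Per1-/- replicate 1 of day 4. Cald1 had the smallest adjusted p of the 10 (1.64e-06) but its log2 fold change of -0.45 ± 0.0491 was below the required size. The other 7 genes had log2 values between -0.13 (Tpm1 and Srf) and 0.09 (Myl9), with 95% intervals that included 0.
Within a genotype no member was called from day 2 to day 4 by limma, where 1.59% of tested genes fell in WT, 1.06% in Per1-/-, and 1.74% in Per2-/-. At an unadjusted p under 0.05 the counts were 3, 3, and 1 of 10, where 19.94%, 19.98%, and 22.64% of all tested genes passed. With voom weights the counts of called members were also 0. In WT, 1 was called with only the groups compared and 1 with a block for the replicate number over days. In Per1-/- cells, 1 was called with the equal FPKM sum. The values for Acta2 were -0.82 in WT, -0.78 in Per1-/-, and -0.25 in Per2-/-, and for Cnn1 they were -0.60, -0.35, and 0.68, with intervals of about 1 on either side for Cnn1.

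**Figure D2:**
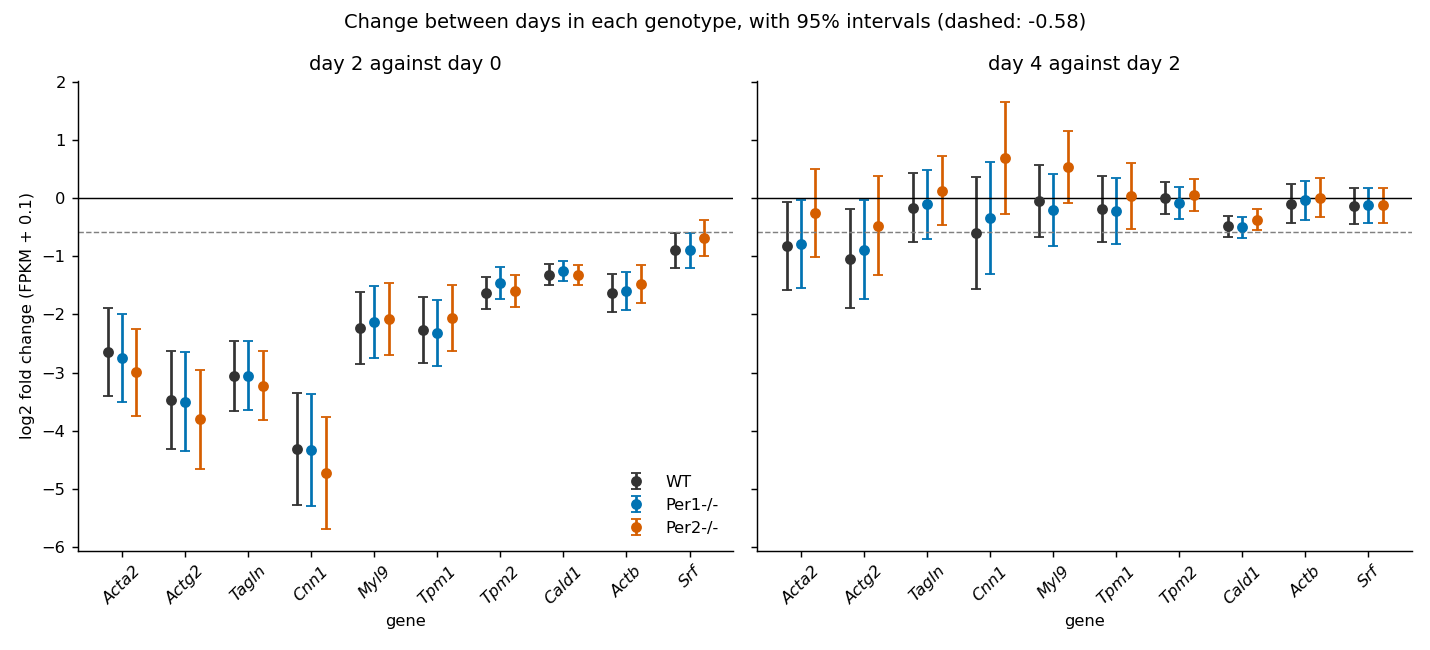
Log2 fold change of FPKM + 0.1 for each gene (x axis) in WT (black), Per1-/- (blue), and Per2-/- (orange) cells, with 95% intervals from limma; the dashed line marks -0.58. From day 0 to day 2 each point lies below the line, between -4.73 and -0.69, and from day 2 to day 4 the intervals of all genes but Acta2, Actg2, and Cald1 include 0 in each genotype.

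The members thus changed their order. On day 0 the mean levels per length ran from Acta2 (2742 FPKM) over Actb (2225), Tpm1 (525), Myl9 (501), Tpm2 (267), Cald1 (209), Actg2 (144), Cnn1 (127), and Srf (43.0) to Tagln (11.7). The ranges of Acta2 and Actb overlapped, as did those of Tpm1 and Myl9, of Tpm2 and Cald1, of Cald1 and Actg2, and of Actg2 and Cnn1. On day 4 the order was Actb (723 FPKM), Acta2 (261), Myl9 (123), Tpm1 (105), Tpm2 (89.0), Cald1 (62.0), Srf (21.8), Actg2 (6.85), Cnn1 (5.51), and Tagln (1.22), and the overlapping neighbors were Acta2 and Myl9, Myl9 and Tpm1, Tpm1 and Tpm2, and Actg2 and Cnn1. Srf was thus below Actg2 and Cnn1 in all 9 libraries of day 0 and above both in all 9 libraries of days 2 and 4.

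Ratios within a library do not depend on how the libraries were scaled. Acta2 was 1.24 ± 0.173 times Actb on day 0 (SD, 9 libraries), 0.550 ± 0.169 times on day 2, and 0.362 ± 0.0807 times on day 4. The log2 ratio differed by -1.22 between days 0 and 2, when the ranges did not overlap, and by -0.58 between days 2 and 4, when they did (exact permutation tests over 9 against 9 libraries, two-sided, adjusted p = 8.23e-05 and 0.0208 over 6 comparisons). The ratio of Actg2 to Acta2 fell from 0.0523 to 0.0300 between days 0 and 2 and that of Tpm1 to Tpm2 from 1.97 to 1.27, each with an exact permutation p of 4.11e-05, the smallest that 48620 arrangements can give. Between days 2 and 4 the latter ratios did not pass the test (adjusted p = 0.371 and 0.505, exact permutation tests). The permutations ignored the genotype and did not take the replicate numbers to pair libraries over days. The first Per1-/- replicate had the lowest ratio of Acta2 to Actb on both day 2 (0.301) and day 4 (0.180). Together the 10 genes held 1.41% to 1.94% of all fragments on day 0, 0.413% to 0.619% on day 2, and 0.397% to 0.502% on day 4.

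The libraries of a group did not carry the program equally. On day 2 the first Per1-/- replicate was the lowest of 9 libraries for 5 members (Acta2, Tagln, Myl9, Tpm1, and Srf) and the second Per2-/- replicate for 4 (Actg2, Cnn1, Tpm2, and Actb). Their median difference from the median of the day was -0.73 and -0.60 on the log2 scale. On day 4 the first Per1-/- replicate was again the lowest for 6 members, with a median difference of -0.38, and on day 0 the first WT replicate was the highest for 6. The summed macrophage markers (10 genes) were 311 and 842 FPKM in the first Per1-/- replicate on days 2 and 4, against 81.3 to 447 and 225 to 842 in all libraries of those days, and 81.3 FPKM in the second Per2-/- replicate of day 2. The summed pericyte and vascular smooth muscle markers (8 genes, the contractile genes Myh11 and Des among them) were 33.3 and 34.6 FPKM in the first Per1-/- replicate. These sums were within the 29.8 to 45.3 FPKM of the day 2 libraries and at the bottom of the 34.6 to 44.1 FPKM of day 4. The part of either cell type in these differences was not tested. With the 3 libraries of Per1-/- replicate 1 left out together, a choice made after the data were seen, the counts from day 0 to day 2 and from day 2 to day 4 were again 10 and 2.
Deviations from the group means were positively correlated for all 45 pairs of members over the 27 libraries. Pearson's r was 0.02 for Actg2 and Srf, 0.93 for Cnn1 and Myl9, and 0.59 at the median. The members of a pair were measured in the same libraries and share their depth and scaling, so this is a description only.

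**Figure D3:**
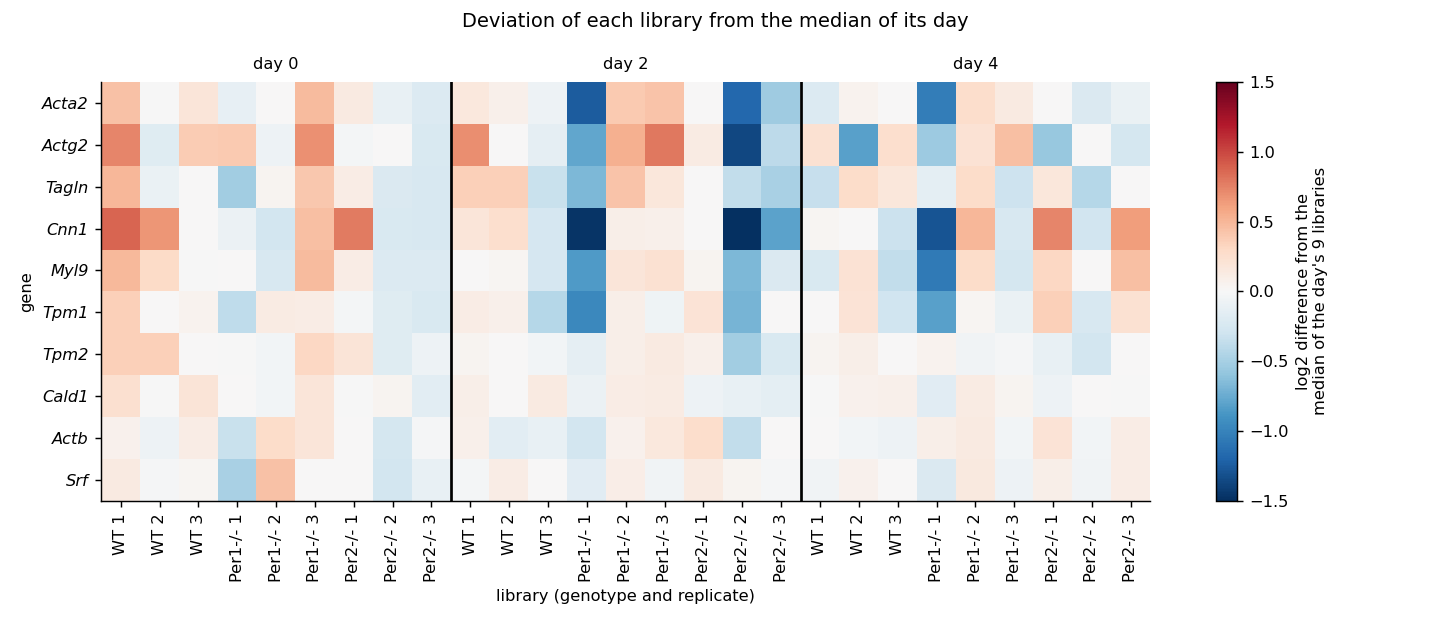
Log2 difference of each library (columns, by day, genotype, and replicate) from the median of the 9 libraries of its day, for the 10 genes (rows); blue is below and red above the median. Replicate 1 of Per1-/- on days 2 and 4 and replicate 2 of Per2-/- on day 2 are blue for most genes, with median differences of -0.73, -0.38, and -0.60.

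No member was called between genotypes on any day. Of the 90 comparisons (10 genes, 3 pairs of genotypes, and 3 days), limma called 0, and voom weights also gave 0. The smallest adjusted p was 0.394 (limma), and 2 comparisons had an unadjusted p under 0.05. Of all tested genes, 2.75% (Per1-/- against WT on day 2) to 13.2% (Per1-/- against Per2-/- on day 4) had an unadjusted p under 0.05. On days 0, 2, and 4, the share of all tested genes called was 0.0134%, 0.00670%, and 0.0268% for Per1-/- against WT, 0.00670%, 0.0268%, and 0.00670% for Per2-/- against WT, and 0.0201%, 0.0737%, and 0.556% for Per1-/- against Per2-/-. The 2 values under 0.05 were both for Cald1 in Per2-/- against WT cells, with log2 differences of -0.18 on days 0 and 2 (adjusted p = 1 for both, limma).
The design and this test on FPKM could not show small differences for most members, and could also miss larger ones. The test also called 0 of the 10 macrophage markers between Per1-/- and WT cells on days 2 and 4. Their median log2 differences were 1.00 and 0.95. The intervals lay within 0.58 on either side of 0 in 36 of the 90 comparisons. For Acta2 in Per2-/- against WT cells on day 2 the log2 difference was -0.62 with a 95% interval of -1.38 to 0.13, and for Cnn1 it was -0.83 (-1.79 to 0.13). The largest value in the other direction on day 4 was also that of Cnn1, 0.46 (-0.50 to 1.42).
The values of 3 replicates did not overlap between Per2-/- and WT cells for 1 member on each day, Tpm1 on day 0, Cald1 on day 2, and Tpm2 on day 4, each lower in Per2-/- cells, where 7.60%, 9.98%, and 10.2% of tested genes did not overlap. Between Per1-/- and WT cells no member was without overlap, where 5.11%, 10.3%, and 14.6% of tested genes were. The change over days was compared between genotypes as well. The F test of the 4 interaction contrasts called 0 of 10 members (0% of all tested genes), and voom weights also gave 0. At an unadjusted p under 0.05 there were 0 members, where 2.43% of all tested genes passed.

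**Figure D4:**
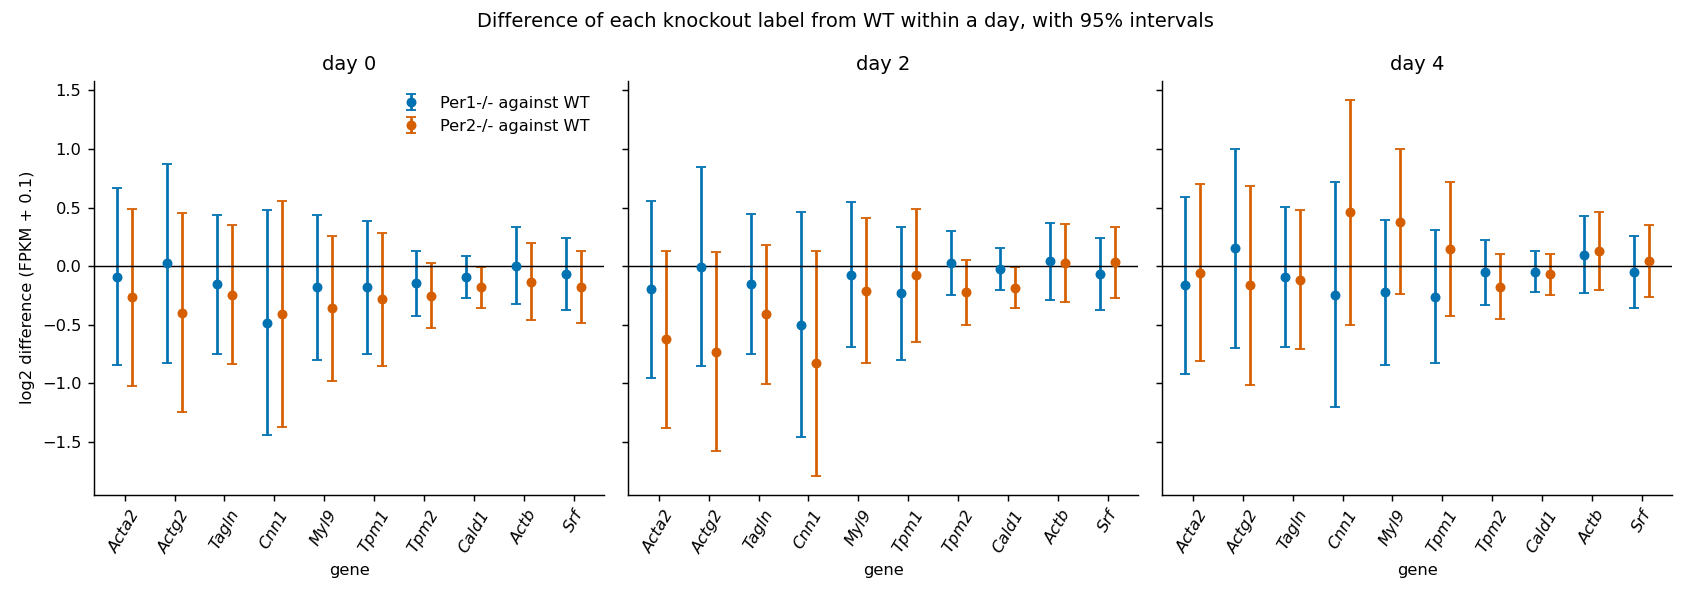
Log2 difference of FPKM + 0.1 between Per1-/- and WT (blue) and between Per2-/- and WT cells (orange) on days 0, 2, and 4 for the 10 genes (x axis), with 95% intervals from limma. All intervals include 0 except those of Cald1 in Per2-/- cells on days 0 and 2, where the value was -0.18 on both days.

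Depth was 15815013 to 24264097 fragments per library, as recovered from the FPKM and the gene lengths. Per1 was at 3.23 to 4.96 FPKM in Per1-/- and 5.44 to 6.33 in WT libraries on day 0, so transcript remained. Per2 was at 1.87 to 2.00 FPKM in the libraries labelled Per2-/- and at 0.817 to 0.957 in WT on day 0, so the transcript was not lost, and these libraries are named by their label. Transcript levels do not measure the protein, which the study examined separately. All samples are labelled as induced neurons. The 6 neuron markers summed to 26.8 to 49.1 FPKM on day 0 and 97.1 to 184 FPKM on day 4. The 8 fibroblast markers summed to 2933 to 3597 and 4036 to 5611 FPKM on these days. Sums of unlike gene sets do not give the share of each cell type. On day 0 the means ran from 0.0107 FPKM for Snap25 and 0.0406 for Dcx to 12.3 for Stmn2 and 26.7 for Tubb3.

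Of the 3 other actins, 2 fell and 1 rose from day 0 to day 2, where 19.9% of all tested genes fell and 22.2% rose. Actg1, the cytoplasmic gamma-actin, fell (1483 to 501 FPKM in the mean from day 0 to day 2, log2 fold change -1.57 ± 0.0786, adjusted p = 1.82e-13). Acta1, the skeletal muscle alpha-actin, fell from 222 to 9.31 FPKM (-4.39 ± 0.271, adjusted p = 4.74e-12) and then rose from day 2 to day 4 (1.15 ± 0.271, adjusted p = 0.0032, all limma). Actc1, the cardiac alpha-actin, rose from day 0 to day 2 (1.25 ± 0.325, adjusted p = 0.00165, limma) in the mean of the genotypes, and was called in WT but not in Per1-/- or Per2-/- cells on their own. Its Per1-/- libraries were at 3.35, 30.0, and 2.93 FPKM on day 0 and at 7.42, 8.26, and 9.51 on day 2. With the 6 actin genes summed as one row, the log2 fold change was -2.02 from day 0 to day 2 (adjusted p = 5.41e-13) and -0.22 from day 2 to day 4 (adjusted p = 0.137, limma).

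Most of the rest of the contractile apparatus fell as well. Of 19 further genes of this kind, 17 fell and 0 rose from day 0 to day 4 (median log2 fold change -1.71). Over all tested genes 21.2% fell and 24.4% rose (median -0.01). Under each of the other 3 scalings by sum, upper quartile, and fragment total, 15 of the 19 fell. Of all 14932 tested genes, 3161 fell on the scale of the file, 1816 with the common sum, and 1763 with the upper quartile. Myh11, the smooth muscle myosin heavy chain, and Lmod1, which nucleates actin filaments in smooth muscle, had the most negative values (-3.44 ± 0.264 and -2.88 ± 0.189). Of 12 other targets of SRF and MRTF, all 12 fell (median -2.11) under each scaling, led by Ctgf, a matricellular protein (-3.88 ± 0.230), and Ankrd1, a stretch-responsive muscle gene (-3.54 ± 0.295). The cofactors of SRF and regulators of actin assembly moved less, and 6 of 13 tested genes fell (5 under each of the other scalings) and 0 rose (median -0.50), led by Dstn, which severs filaments (-1.82 ± 0.0805), and Rock2, a kinase that raises myosin phosphorylation (-1.55 ± 0.0789). Myocd, the smooth muscle cofactor of SRF, did not pass the filter.
The matrix side of the myofibroblast state did not move as one. Of 9 genes, 3 fell and 4 rose from day 0 to day 4, where 21.2% of all tested genes fell and 24.4% rose. The median was 0.45, against -0.01 over all tested genes, and under the other scalings 2 of the 9 fell and 5 rose. Tnc, the matrix protein tenascin C, fell from 450 to 38.3 FPKM in the mean (-3.61 ± 0.257) and Fn1, which encodes fibronectin, from 1033 to 431 FPKM (-1.26 ± 0.0884). Col3a1, the fibrillar collagen III, rose from 156 to 1054 FPKM (2.88 ± 0.200) and Postn, the matrix protein periostin, from 90.9 to 290 FPKM (1.81 ± 0.246, adjusted p = 8.76e-07, limma).

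**Figure D5:**
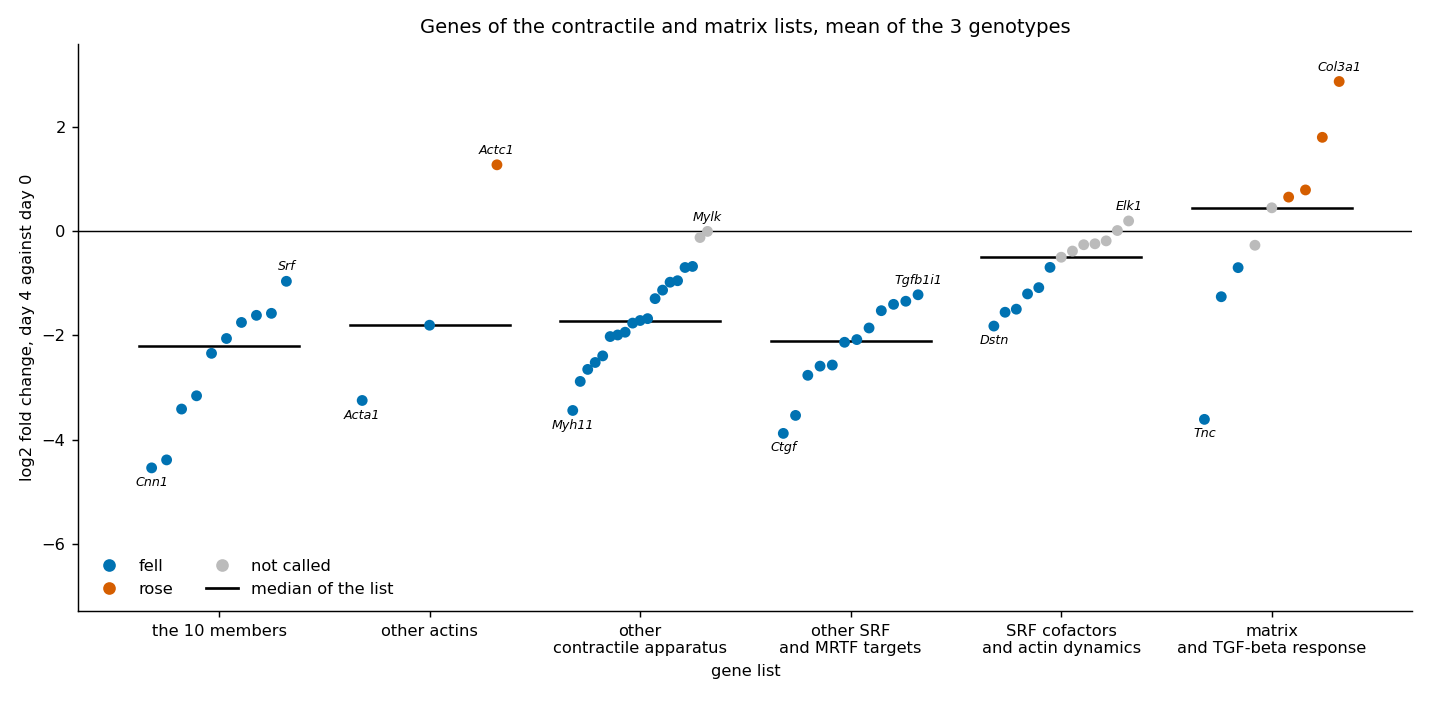
Log2 fold change from day 0 to day 4 (y axis, mean of the 3 genotypes) for the 10 members and for the tested genes of 5 related lists, with the lowest and highest gene of each named; blue fell, orange rose, grey was not called, and bars are medians. The medians are -2.20 for the members and -1.71 for the other contractile apparatus, and the matrix list spans -3.61 (Tnc) to 2.88 (Col3a1).

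Markers of other cells moved in both directions over the same days, where 21.2% of all tested genes fell and 24.4% rose from day 0 to day 4. From day 0 to day 4, 5 of 7 tested pericyte and vascular smooth muscle markers fell and 2 rose, with Kcnj8 below the filter. Their sum went from 73.8 to 157 FPKM on day 0 to 34.6 to 44.1 on day 4. The 2 that rose were Notch3 (log2 fold change 2.18 ± 0.171) and Abcc9 (2.36 ± 0.191, from a day 0 mean of 0.151 FPKM). Myh11 and Des, which fell, were also counted in the contractile apparatus and had day 0 means of 10.3 and 35.9 FPKM. The lists also shared Acta1 and Actc1 (other actins and skeletal muscle) and Col1a1 and Col3a1 (matrix and fibroblast). Of 8 fibroblast markers 6 rose, led by Lum and Dcn, and 2 fell (Thy1 and Vim), and their sum went from 2933 to 3597 to 4036 to 5611 FPKM. The 10 macrophage markers rose in 9 cases, from a sum of 43.0 to 387 to one of 225 to 842 FPKM, and the day 4 sums were 310 to 388 in WT, 522 to 842 in Per1-/-, and 225 to 297 in Per2-/- libraries. The 6 neuron markers rose in 5 cases (not Stmn2), and of 8 skeletal muscle markers 5 rose and 1 fell (Acta1). The part of these cell types in the fall of the 10 genes was not tested.

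The genes with the course most like that of Acta2 over the 27 libraries were Csrp1 (r = 0.99), Jph2 (0.99), Tnc (0.99), Actn1 (0.99), and Ddah1 (0.99), by Pearson's r of the log2 values. Those most like Srf were Adss (0.98), Tuba1b (0.98), Gspt1 (0.98), Pa2g4 (0.98), and Grk6 (0.98). The 27 libraries share depth and scaling and fall into 3 days, so such values describe a shared course over days. Of the 10, Csrp1 and Tnc were also in the lists above as an SRF target and a matrix gene, and Actn1, an actin cross-linker, as part of the contractile apparatus.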

How the data were processed

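Poly(A) RNA was sequenced as unstranded paired-end libraries. According to the methods and the submitters' processing notes, the authors aligned reads to GRCm38 (mm10) with HISAT2 2.0.5, counted them with featureCounts 1.5.0-p3, and deposited FPKM. All values gave whole fragments (100% per library, within 0.01) with the deposited lengths. The FPKM denominators were 86.5% to 92.5% of the fragments in the table on day 0, 105% to 110% on day 2, and 103% to 110% on day 4, so a scaling beyond the library total is included, and how it was made was not given in the sources used here. No column of other samples was found.

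After genes averaging under 0.5 FPKM were left out, log2(FPKM + 0.1) was fitted with limma 3.58.1 in R 4.3.3 (lmFit, contrasts.fit, and eBayes with a trend) over all 27 libraries in 9 groups, because the file holds FPKM rather than the counts that the authors tested with DESeq2. Tables were made with Python 3.11.15, and the fits were tested on simulated data. Replicates differed by 9.77 to 74.5 times counting noise, so none was the same library deposited again, whereas repeats from one culture cannot be told apart from separate cultures. Protein sequences were not used here. A gene of the matrix list is not reported here and was left out of its counts. The members, the lists, and the rule for named genes (all members, the 2 largest called changes in each direction of each list, every gene of lists with at most 6 genes, the 5 genes most like Acta2 and Srf, Per1, and Per2) were chosen with earlier results of these data known. Alternatives were other pseudocounts, filters, scalings, voom weights, a replicate block, a fit of only the groups compared, no minimum fold, summed actins, and each library left out in turn.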

Additional observations from a re-analysis of the deposited data

How the results depend on the processing

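The count of 10 members that fell from day 0 to day 2 and from day 0 to day 4 stayed at 9 or 10 under all alternatives, and of 1209 alternative values of single members 1179 kept their direction and call. The call of Srf from day 0 to day 2 was lost with FPKM rescaled to a common sum (-0.44), to that sum without Gm23935 (-0.44), and per fragment total (-0.55). From day 2 to day 4 the count was 1 in place of 2 with all genes above 0, with the upper quartile scale, and with only the groups compared, 3 with no minimum fold change (Cald1 added), and 1 to 2 with a library left out. Within genotypes the count of 0 became 1 in WT with the replicate block, with no minimum fold change, with only the groups compared, and without the 3 libraries of Per1-/- replicate 1 (this setting, the sum without Gm23935, and the scale per fragment total were chosen after seeing the data). It became 1 in Per1-/- with the common sum and with no minimum fold change, and 0 to 1 with a library left out, and 1 in Per2-/- with no minimum fold change. Small changes from day 2 to day 4 turned direction: with the upper quartile scale Tagln was 0.0330, Tpm2 0.0756, and Actb 0.0455, and with a library left out Tagln was -0.157 to 0.0274, Cnn1 -0.263 to 0.0690, Myl9 -0.0293 to 0.207, Tpm2 -0.0624 to 0.0388, and Actb -0.0982 to 0.0074. The cause was not tested.

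Libraries that share a genotype and number on 2 days had correlations of their deviations of -0.02 to 0.29 (14 of 27 pairs over 0.1), and 26 of 27 libraries were most like their own number. Libraries that share a day and number had -0.26 to 0.19, which bears only on a pairing across genotypes. The main fit did not take the numbers to pair the libraries. Within a genotype they may do so over days, given the 26 of 27, and the main fit leaves this out. With the replicate block over days, 2 members were called from day 2 to day 4 (all tested genes, 532 fell in place of 512 and 1034 rose in place of 976), and 10 in the other comparisons over days. Within genotypes the block raised all calls from day 2 to day 4 from 242 to 460 up and 237 to 369 down in WT, 206 to 411 and 158 to 319 in Per1-/-, and 346 to 624 and 260 to 427 in Per2-/-. No other count of members changed with the block, and 0 were called between genotypes. Over all tested genes, calls from day 2 to day 4 were 628 up and 267 down with a pseudocount of 1 and 2097 up and 2357 down with no minimum fold change, against 976 and 512, and the count of genes down from day 0 to day 2 was 1838 with the upper quartile scale and 1643 per fragment total, against 2967. The depth of 35 fragments at the least limits Tagln most.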

Other observations

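The striated muscle actins had wide ranges in the day 0 libraries. On day 0 Acta1 was at 48.7 to 375 FPKM in the 3 Per1-/- libraries and at 179 to 308 in WT. Actc1 was at 2.93 to 30.0 FPKM in Per1-/-, 0.747 to 2.44 in WT, and 2.11 to 2.91 in Per2-/- libraries on day 0. On day 4 Actc1 was at 4.12 to 10.5 FPKM in all libraries.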
